A study of Rattus norvegicus with 4 samples.

Results

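Basement membranes are thin sheets of extracellular matrix that underlie endothelium and epithelium and wrap muscle cells, cardiomyocytes included. Their network is built from type IV collagen, whose chains join in threes inside the cell, and cardiac fibroblasts (CFs) are among the cells that secrete it. The 8 genes described here are the 6 type IV chains of the rat, Col4a1 to Col4a6, and the related type XV and type XVIII chains, Col15a1 and Col18a1, which carry heparan or chondroitin sulfate and anchor the membrane to the matrix below it. They were chosen by symbol, matched to the NCBI gene IDs of the lists, and 7 of the 8 had a listed peak, out of 8729 genes with a peak in either list and 44 collagen chain genes in all.

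Neonatal CFs were taken from hearts of Sprague-Dawley rats no older than 3 days and transfected for 48 h with 1 µg/ml of the empty plasmid (Vector, genotype labelled wild-type) or of a plasmid carrying rat FTO cDNA (FTO). FTO is an enzyme that removes the methyl group of N6-methyladenosine (m6A), the most common internal mark of mRNA. Each group had 1 m6A-IP library, made from RNA fragments bound by an m6A antibody, and 1 input library, and the authors deposited 1 list of called peaks for each group, which held 21249 peaks for Vector and 17796 for FTO. The cells were primary cultures, the methods of the study name differential adhesion as the purification of the heart cells, and how many animals they came from was not given in the sources used here.

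The lists give the length of each peak in bp, its transcript and its gene, and no position, height or read number was used. The depth is therefore unknown. With 1 library pair per group, no difference below has a replicate check or a p-value, and the spread between cultures is not known. For Fto itself 3 Vector peaks and 9 FTO peaks were listed, and plasmid and endogenous transcripts were not separated. Fewer cells expressing a gene, less RNA per cell and less methylation cannot be told apart from these numbers.

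The labelled cell type was looked up in both lists. Of 12 fibroblast genes, 6 had Vector peaks, 13 in all, and 6 had FTO peaks, 12 in all. Pdgfra, a growth factor receptor of CFs, had the most Vector peaks among them, 7, against 6 FTO peaks, while neither list held a peak for Col3a1, Col1a2, Col1a1, Dcn or Vim. All 6 cardiomyocyte genes had Vector peaks and 5 had FTO peaks, 23 and 25 in all, with Myh7 at 8 and 5, Myh6 at 7 and 7, Tnnt2 at 4 and 7 and Ryr2 at 2 and 5. Of 3 genes of smooth muscle cells or pericytes, which also make type IV collagen, Myh11 had 17 and 15 peaks, Cspg4 had 3 and 6, and Rgs5 had none. The endothelial genes Pecam1, Cdh5 and Kdr had no peak in either list, and Tek had 0 and 2. A peak needs both a transcript and its methylation, so a gene without one may still be expressed, and the part that these other cell types had in the collagen peaks was not tested.

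The 8 genes carried 51 Vector peaks and 41 FTO peaks. Peaks were fewer in the FTO list for 4 of them, Col4a1, Col4a3, Col4a4 and Col4a6, and more for 3, Col4a2, Col15a1 and Col18a1. Col4a5 had no peak in either list. Of these directions some depended on the minimum length. The difference of Col4a4 was -8, and 1 among peaks of at least 200 bp, and that of Col15a1 was 1, and -1 among peaks of at least 100 bp. For Col4a1 it was -2 as listed and 0.134 with FTO numbers scaled to the size of the Vector list. This scaling raises every FTO number by the same factor, 1.19, so the turn of Col4a1 came from the factor alone. With it, 3 genes had fewer FTO peaks and 4 had more, and shares over all genes with it are not given here. At 200 bp Col4a1, Col15a1 and Col18a1 each had a difference of 0. Over all genes with a peak, 41.4% had fewer FTO peaks, 21.2% had more and 37.4% had as many in both, and the median difference was 0 against -1 over the 7 genes here. Without Col4a4 the totals were 42 and 40. The FTO list was also smaller as a whole, and scaled to the size of the Vector list the FTO total of the 8 genes was 49.0 against 51.

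**Figure D1:**
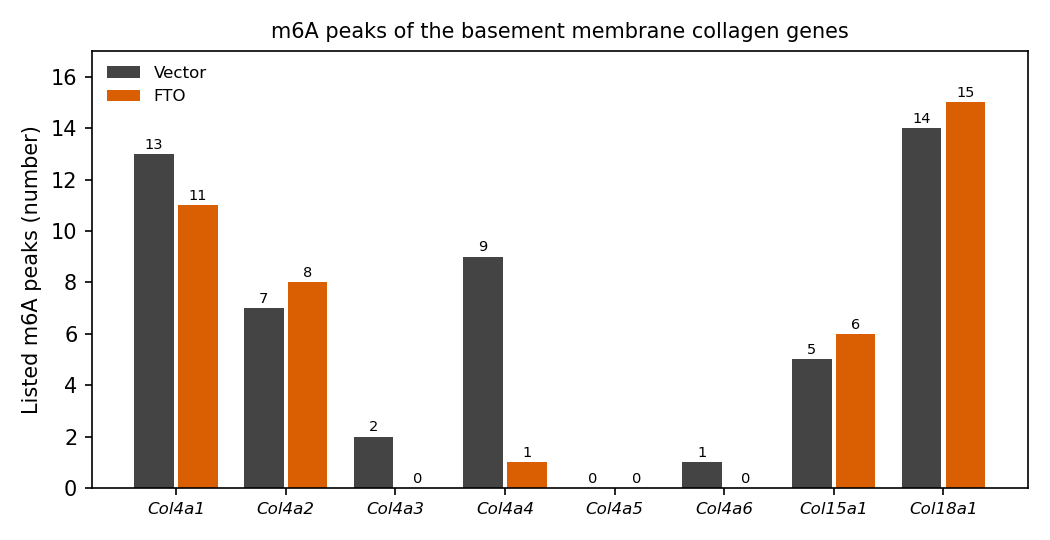
Number of listed m6A peaks (vertical axis) for each of the 8 genes (horizontal axis) in the lists of Vector (dark grey bars) and FTO (orange bars), 1 library pair per group and so without error bars. Col4a4 has 9 and 1, while the bars of Col4a2, Col15a1 and Col18a1 differ by 1 peak each.

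A Vector peak and an FTO peak of the same gene were taken as a pair, 1 to 1, if their lengths were equal. Positions were not used, so a peak at the same place with another length counted as unpaired. In the study's own count, smaller shares of the peaks of each group were unique. For the 8 genes, 30 peaks were common to both lists. No partner was found for 21 of the 51 Vector peaks, which is 41.2% (95% Wilson interval 28.8% to 54.8%, counting error only), and over all genes 42.7% of the Vector peaks had none. For the FTO list, 11 of 41 peaks had no partner, which is 26.8% (15.7% to 41.9%), against 31.6% over all genes. For Vector the share depended on the gene, at 28.6% (17.2% to 43.6%) without Col4a4 and 59.4% (42.3% to 74.5%) over the type IV chains.

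Col4a4 and Col4a1 supplied 9 and 6 of the 21 unpaired Vector peaks and Col4a3 supplied 2, whereas Col15a1 and Col18a1 together had 19 Vector peaks of which 17 had a partner. The order of the peaks was read from the number in each peak name. Among 1518 genes with 3 or more common lengths, all common lengths came in the same order in both lists for 1511. This held for the 30 common peaks here, so the number was used below as the order along the gene. The highest numbers were 59557 for Vector and 52060 for FTO, against 21249 and 17796 listed peaks, so many numbers were not listed. Why they were not listed is unknown. A peak listed for 1 group alone may therefore have been called, but not listed, in the other.

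Col4a1 (gene ID 290905) and Col4a2 (306628) encode the chains that join, in nearly every basement membrane, into the main type IV trimer. The genes are neighbours on opposite strands in the GRCr8 assembly, transcribed away from each other, and in both lists the numbers ran in the same order as there, from Rab20 through Col4a2 and Col4a1 to Irs2. Together the pair had 20 Vector peaks and 19 FTO peaks, with 13 in common.

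Col4a1 had 13 Vector peaks and 11 FTO peaks, and only 61 of the 7894 genes in the Vector list had more. In the Vector list its lengths in order were 286, 60, 90, 42, 87, 54, 42, 165, 84, 192, 168, 153 and 173 bp. In the FTO list they were 60, 84, 36, 87, 54, 42, 165, 96, 84, 173 and 1449 bp. Thus 7 peaks kept their length and their order. Another 31 genes had 13 Vector peaks, of which 28 had fewer FTO peaks, 2 had as many and 1 had more, and their median was 10.

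The differences in Col4a1 lay at the ends and at 3 places within the gene. The Vector peak of 286 bp, the one nearest to Col4a2, had no listed counterpart, and 1 FTO number between Col4a2 and Col4a1 was not listed. Between the common peaks of 60 and 87 bp, the Vector list had peaks of 90 and 42 bp where the FTO list had 84 and 36 bp, each 6 bp shorter. A peak of 96 bp stood between 165 and 84 bp in the FTO list alone, and the Vector numbers there, 22981 and 22982, left no gap. The Vector peaks of 192, 168 and 153 bp, which lay between the common peaks of 84 and 173 bp, were not in the FTO list. There the FTO numbers passed from 20274 to 20276. The last FTO peak, 1449 bp long and nearest to Irs2, which is the far end of the transcript by the strand in GRCr8, had no listed Vector counterpart. Between Col4a1 and Irs2, 1 Vector number was not listed. The single peak of 1449 bp made the summed length larger in the FTO list, 2330 bp against 1596 bp. Without the longest peak of each list, the sums were 881 and 1310 bp.

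Col4a2 had 7 Vector peaks, of 90, 155, 51, 93, 42, 63 and 117 bp in order. It had 8 FTO peaks, of 258, 90, 155, 51, 93, 42, 72 and 117 bp. The lists shared 6 of these, and the peak before the last was 9 bp longer in the FTO list, 72 bp against 63 bp. The added peak of 258 bp came first, on the side of Rab20, so that in Col4a2 as in Col4a1 the peak listed for FTO alone at an end was the one farthest from the partner gene. Between Rab20 and Col4a2 no Vector number was left unlisted. The summed length was 611 bp for Vector and 878 bp for FTO.

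Col4a3 (gene ID 363265), Col4a4 (301562) and Col4a5 (363457) encode the chains of a second trimer, best known from the filter of the kidney glomerulus, where their loss causes Alport syndrome. Col4a3 and Col4a4, again neighbours on opposite strands, had 11 Vector peaks and 1 FTO peak, with none in common. Col4a4 had 9 Vector peaks, of 64, 182, 105, 171, 107, 73, 164, 69 and 135 bp in order. Its single FTO peak was 1797 bp long. The Vector peaks of Col4a4 were assigned to 2 Ensembl transcripts, 8 to one and 1 to the other, and the FTO peak to yet another, so that peaks of different transcript models are compared here. Of the 21 Vector numbers from its first to its last peak, 12 were not listed. Around its FTO peak, 5 FTO numbers after Irs1 and 9 before Agfg1, the nearest listed genes, were not listed. Fewer called peaks and fewer listed peaks cannot be told apart here. Because the FTO peak was long, its length exceeded the 1070 bp of the 9 Vector peaks together. Another 68 genes had 9 Vector peaks, and their median was 8 FTO peaks, with 1 gene at 1 FTO peak or none.

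Col4a3 had Vector peaks of 282 and 78 bp and none in the FTO list. Peaks in the Vector list alone were found for 16.4% of all genes, and 244 of another 1737 genes with 2 Vector peaks had none for FTO. Col4a6 (gene ID 363458), whose chain joins with that of Col4a5 in skin and smooth muscle, had 1 Vector peak of 202 bp and no FTO peak. Col4a5, which belongs to both of these trimers, had no peak in either list. With so few peaks, the numbers of Col4a3 and Col4a6 carry little information on a difference.

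Col18a1 (gene ID 85251), whose chain releases the anti-angiogenic fragment endostatin from its end, had the most peaks of the 8 genes, 14 for Vector and 15 for FTO. More peaks than Col18a1 were listed for 47 of the 7894 Vector genes and for 14 of the 7297 FTO genes. The Vector lengths in order were 100, 545, 87, 54, 130, 132, 90, 75, 69, 129, 145, 270, 116 and 1196 bp. The FTO list repeated 13 of these in the same order. It differed from the Vector list in a further listed peak of 186 bp between 130 and 132 bp and in a peak of 198 bp in place of the one of 116 bp, 82 bp longer. Between the peaks of 130 and 132 bp the Vector numbers passed from 33211 to 33214. The peak of 1196 bp was the last in both lists, next to Slc19a1. Another 13 genes had 14 Vector peaks, of which 9 had fewer FTO peaks, 2 had as many and 2 had more, and their median was 11.

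Col15a1 (gene ID 298069), which encodes the closest relative of the type XVIII chain and releases a similar fragment, had 5 Vector peaks and 6 FTO peaks. In the Vector list they measured 549, 75, 204, 126 and 63 bp in order. In the FTO list they measured 549, 75, 81, 204, 63 and 84 bp, so that 4 peaks were shared. The peak of 126 bp was listed for Vector alone and those of 81 and 84 bp for FTO alone. Numbers of the other list were unlisted at each of these places. FTO numbers passed from 37580 to 37583 at the 126 bp peak, and Vector numbers from 42771 to 42773 at the 81 bp peak. Between Col15a1 and Zfp189, the next listed gene, 2 Vector numbers were not listed. The summed lengths were 1017 and 1056 bp, the smallest difference among the 7 genes with peaks. Another 386 genes had 5 Vector peaks, of which 242 had fewer FTO peaks and 51 had more.

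**Figure D2:**
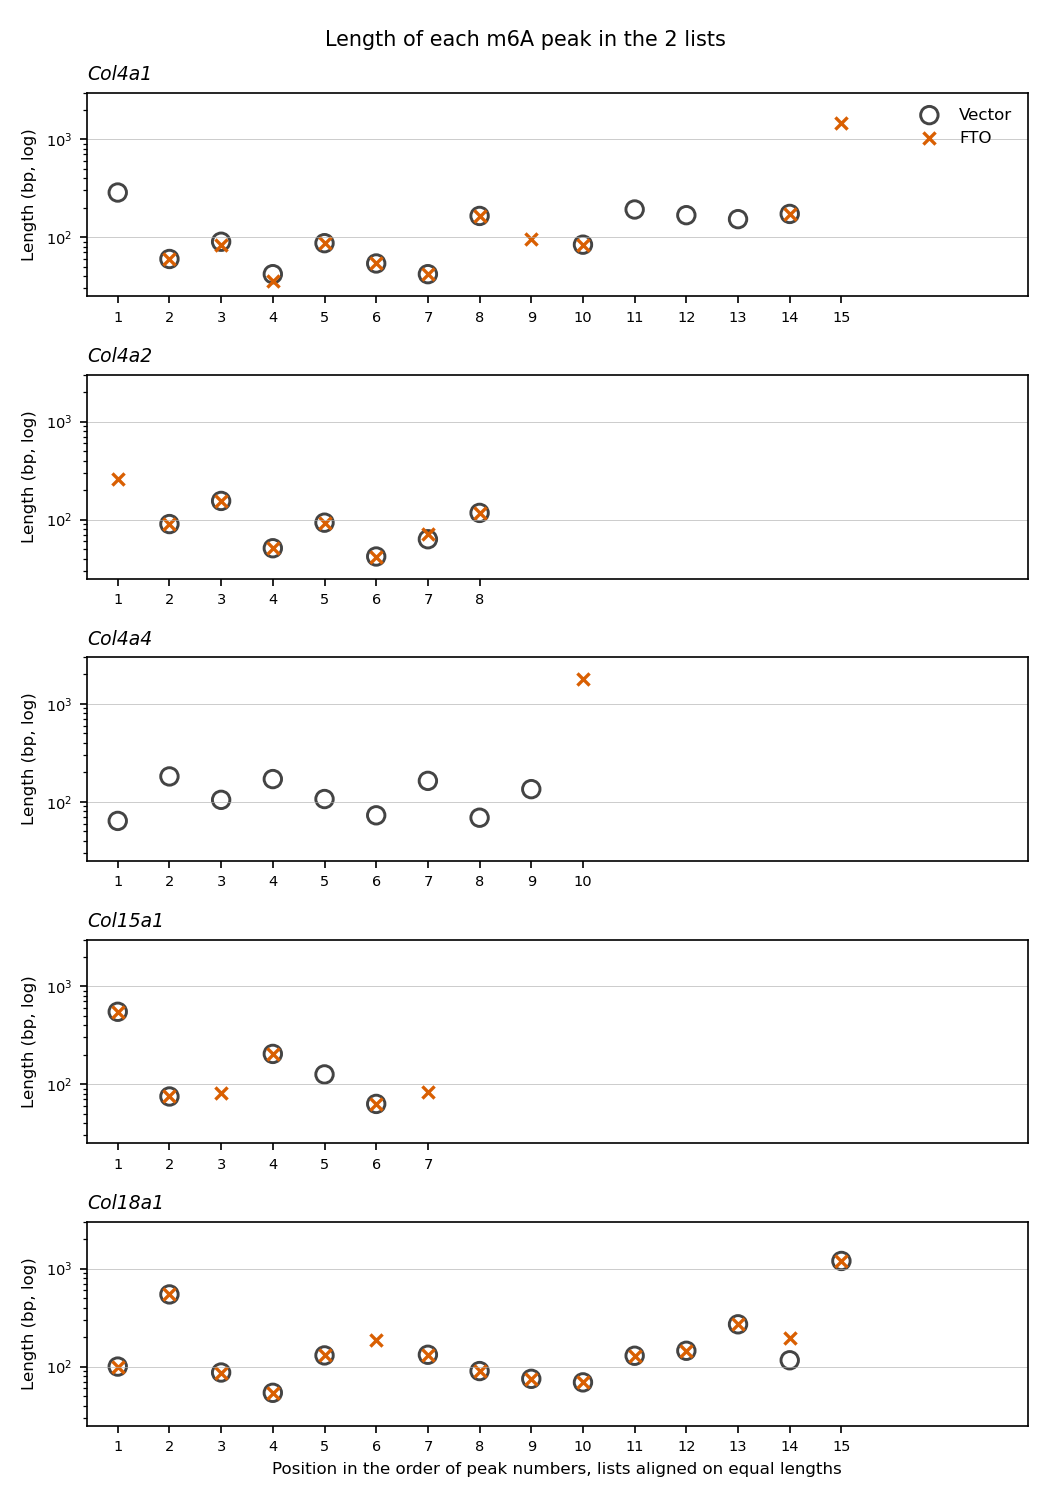
Length of each listed peak (vertical axis, bp, log scale) for 5 of the genes, in the order of the peak numbers (horizontal axis), with the lists aligned on equal lengths. Open dark circles are Vector peaks and orange crosses are FTO peaks. Crosses inside circles are peaks of the same length in both lists, 13 for Col18a1, 7 for Col4a1, 6 for Col4a2 and 4 for Col15a1. Col4a4 has no common length, and its FTO peak of 1797 bp is drawn after the Vector peaks without being aligned to them.

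The lengths had a feature in common that the choice of genes did not use. The triple helix of a collagen repeats the unit glycine-X-Y, which 9 bases encode, and collagen exons often hold whole codons or whole units. Of the 51 Vector peaks, 36 (70.6%) were multiples of 3 bp and 14 (27.5%) were multiples of 9 bp. Of the 41 FTO peaks, 34 (82.9%) were multiples of 3 bp and 13 (31.7%) of 9 bp. Over all peaks these shares were 38.1% and 13.2% for Vector and 38.0% and 13.1% for FTO. Multiples of 3 bp were more frequent still in the 11 fibrillar chains, at 94.3% of Vector and 90.2% of FTO peaks. They made up 85.0% of 120 Vector and 80.0% of 90 FTO peaks in the 36 other collagen chains, which include the fibrillar ones. The fibrillar chains held 83 of these 102 Vector and 55 of these 72 FTO peaks, and shares without them are not given here. In the fibrillar chains the share of multiples of 9 bp was 85.2% of 88 Vector peaks and 82.0% of 61 FTO peaks. The genes differed among themselves, with multiples of 3 bp making up 11 of 13 Vector peaks in Col4a1, 6 of 7 in Col4a2 and all 5 in Col15a1, but 8 of 14 in Col18a1 and 4 of 9 in Col4a4.

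The peaks of these genes were also short. The median was 107 bp for Vector and 93 bp for FTO, against 203 and 228 bp over all peaks. Peaks under 100 bp made up 45.1% of the Vector peaks and 53.7% of the FTO peaks, against 12.8% and 10.8% of the whole lists. Short peaks were not particular to these genes among the collagens, since the fibrillar chains had them as well. In the fibrillar chains the medians were 84 and 99 bp, with 55.7% and 52.5% under 100 bp. In all 36 other collagen chains they were 99 and 108 bp, with 50.8% and 45.6%. These 36 include the fibrillar chains, which held 49 of the 61 Vector and 32 of the 41 FTO peaks under 100 bp. Only 1 Vector peak reached 1000 bp, that of Col18a1, and in the FTO list those of Col4a1 and Col4a4 joined it, while 14.2% of all Vector peaks and 16.7% of all FTO peaks were as long. Summed over the 8 genes, the peaks measured 7994 bp for Vector and 9467 bp for FTO, a difference of 1473 bp, while over all peaks the sum was 10513535 bp for Vector and the smaller one, 9793983 bp, for FTO. Without the longest peak of each gene and list the difference was -924 bp, so the larger FTO sum rested on these long peaks. This step took out the only FTO peak of Col4a4, which left 888 bp for Vector and 0 for FTO. Col4a3, with no FTO peak, kept 78 bp for Vector. Col4a1 also had less for FTO, while Col4a2, Col15a1 and Col18a1 had more. Of 51 distinct lengths, 8 occurred in more than 1 of the genes, and 90 bp occurred in 3, Col4a1, Col4a2 and Col18a1.

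The other 36 collagen chains had 120 Vector peaks and 90 FTO peaks, with fewer FTO peaks for 9 of the 16 with a peak (56.2%), as many for 2 and more for 5 (31.2%), beside 41.4% and 21.2% over all genes. Their unpaired share was 35.0% of the Vector peaks (95% Wilson interval 27.1% to 43.9%) and 13.3% of the FTO peaks (7.79% to 21.9%), and the intervals overlapped those of the 8 genes. Over all genes the shares were 42.7% and 31.6%. Peaks of 1 gene are not independent, and Col5a1 and Col5a2, with 26 of 29 and 21 of 21 FTO peaks paired, weighed heavily in these shares. Among chains with 5 or more peaks in either list, Col16a1 had 15 Vector and 11 FTO peaks and Col6a1 had 6 and 7. Of the fibrillar chains, Col5a1 had 34 and 29, Col5a2 22 and 21, Col11a1 18 and 6, Col5a3 7 and 1, and Col24a1 5 and 1.

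A list of 84 other genes of basement membranes, their assembly, receptors and proteases was examined for its direction. Of these, 57 had a peak in either list, and peaks were fewer in the FTO list for 22 (38.6%), as many for 11 and more for 24 (42.1%), beside 41.4% fewer and 21.2% more over all genes. The balance depended on how peaks were counted, with 15 fewer and 13 more among peaks of at least 200 bp. With FTO numbers scaled and only differences past 1 peak, there were 12 fewer and 24 more. By construction, a loss of 1 peak cannot count as fewer there, while a gain of 1 always counts as more. Shares over all genes are not given for these counts, so neither can be set against the 41.4% and 21.2% above. The list had 148 Vector peaks and 132 FTO peaks, with a median difference of 0. The 11 laminin chains, which form the second network of the membrane, had 26 and 11 peaks, with fewer FTO peaks for 4 of the 6 with a peak (66.7%), as many for 1 and more for 1 (16.7%). Lama2, the laminin chain of muscle, had 7 Vector peaks and 1 FTO peak. Lama4, the chain of vessels, had 6 and 1, and Lamc1, which is part of most laminins, had 9 and 5.

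Among 6 nidogens and proteoglycans with a peak, FTO peaks were fewer for 1, as many for 3 and more for 2, and among 10 other components they were fewer for 4, as many for 1 and more for 5, beside 41.4%, 37.4% and 21.2% over all genes. Nid2, a nidogen that bridges laminin and type IV collagen, had 3 Vector peaks of 707, 233 and 275 bp, all of which were among its 6 FTO peaks. Smoc2, a calcium-binding matrix protein, had 2 and 8 peaks with 1 in common. Fbln2, a fibulin that binds nidogen, had 7 and 8, and its 7 Vector peaks were all found in the FTO list. Frem1 had 4 Vector peaks and none in the FTO list. Sdc3, a syndecan, had 4 and 5.

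Among 19 genes of collagen assembly and modification, 13 had peaks, fewer in the FTO list for 7 (53.8%), as many for 2 and more for 4 (30.8%), beside 41.4% fewer and 21.2% more over all genes. Pxdn, the peroxidase that forms the sulfilimine cross-links of type IV collagen, had 6 Vector peaks and 3 FTO peaks, and all 3 were paired. Plod1, a lysyl hydroxylase, had 5 and 2. P3h2, a prolyl hydroxylase that acts on type IV collagen, had Vector peaks of 282, 150, 190 and 141 bp and none in the FTO list. Loxl4, a lysyl oxidase-like enzyme, had 1 and 4. Mia3, which loads bulky procollagens into transport vesicles, had 7 and 8, and the 7 Vector lengths were all kept. Serpinh1, the collagen chaperone, had no peak in either list.

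Of 10 receptors, 8 had peaks, with fewer FTO peaks for 2, as many for 1 and more for 5 (62.5%), beside 41.4% fewer and 21.2% more over all genes. Of these 5, 4 had no Vector peak and 1 FTO peak, and the receptors had 16 peaks in each list. Itga6, a laminin receptor subunit, had 5 Vector peaks and 1 FTO peak with no length in common, Itga3 had 4 and 5, and the collagen receptor Ddr1 had 6 and 5. Of 14 proteases and inhibitors, 11 had peaks, with fewer FTO peaks for 4 (36.4%), as many for 3 and more for 4 (36.4%). Over all genes, 41.4% had fewer and 21.2% had more. Mmp16 had 4 and 5 and Timp2 had 5 and 3. The chains of collagens VI, VII and XVII had 9 Vector peaks, which all had a partner, and 13 FTO peaks, of which 4 had none, beside 42.7% and 31.6% unpaired over all genes. FTO peaks were more for all 3 of these chains with a peak, beside 21.2% with more over all genes.

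The genes most like each collagen were found by the sum of the differences in Vector number, FTO number and common peaks, over the 2 lists. For Col4a1 the nearest was Srp68, with 13 Vector peaks, 10 FTO peaks and 7 in common, and Arid4b (12, 11 and 8) was also near. For Col4a4 it was Limch1, with 9 Vector peaks and none in the FTO list, and then Piezo2 (8, 1 and 1) and Tnik (8, 0 and 0). Col18a1 was most like Arid1b (15, 15 and 13), Sipa1l3 (14, 15 and 12) and Eif4ebp3 (14, 14 and 12). The same 3 values as for Col4a2 were found for 7 genes, of which Ccar1, Igf1r and Abcg1 were nearest in summed Vector length. The values of Col15a1 were shared by 10 genes, of which Lnx2, Mrps5 and Necap2 were nearest in that length. None of these is a collagen.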

How the data were processed

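The authors made 1 m6A-IP and 1 input library for Vector and likewise for FTO. The submitters' processing notes name cutadapt 1.9.3, HISAT2 2.0.4 and the genome build rn6. Peak names carry the prefix MACS, and the threshold was not given in the sources used here. The value used is the deposited peak length in bp.

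Gene IDs were given symbols through RefSeq (GRCr8), with 7489 of 7723 Vector and 6920 of 7145 FTO IDs matched. This build was used only for names, strands and neighbours. Peaks without a gene ID, 248 and 213, were counted by transcript, each such transcript as a gene of its own. Planned protein features were not analysed here. The members and gene lists were chosen with earlier results of these data known. Basement membrane genes are named at 5 or more peaks in either list or a difference of 3 or more, other collagen chains at 5 or more peaks, and up to 3 like genes for each member with at least 3 peaks (ties by nearest summed Vector length), of which 1 is not reported here. Marker genes, neighbours, Fto and Serpinh1 are named besides. No p-value was computed. Pairing was tested on simulated lists in which a peak without a partner had a length that no other peak of its gene had. Matches of length by chance were not tested. Alternatives were minimum lengths, scaling by list size, distinct lengths and other pairing rules. Python 3.11.15, pandas 2.3.3, numpy 2.4.6 and scipy 1.17.1 were used.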

Additional observations from a re-analysis of the deposited data

How the results depend on the processing

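Under a minimum length of 200 bp, the 8 genes kept 8 Vector peaks (3534 bp) and 8 FTO peaks (6268 bp), 5 in common, and the FTO list was longer by 2734 bp. Fewer FTO peaks were then listed for 2 members, Col4a4 turned to a difference of 1, Col4a1, Col15a1 and Col18a1 moved to 0, and 15 other basement membrane genes had fewer FTO peaks and 13 had more. With at least 100 bp, 28 and 19 peaks remained, 14 in common, Col15a1 turned to -1 and Col4a4 moved from -8 to -5. Scaling by the ratio of list sizes, 1.19, raises every FTO number by the same factor. Through this factor alone the difference of Col4a1 went from -2 to 0.134, and those of Col18a1, Col4a2 and Col15a1 from 1 to 3.91, 2.55 and 2.16. With this scaling and only differences past 1 peak counted, 12 other basement membrane genes had fewer FTO peaks and 24 had more. A loss of 1 peak cannot count as fewer there, while a gain of 1 always counts as more. Shares over all genes are not given under the scaling or the minimum lengths, so these counts are not compared with all genes. With any peak of the same gene as partner, 25.5% of Vector and 7.32% of FTO peaks had none. Without the longest peak of each gene and list, an alternative chosen after seeing the data like those without Col4a4 and with pairing in order, the sums were 5142 and 4218 bp, and the difference turned from 1473 to -924 bp. Col4a4, with its single FTO peak taken out, then had 888 bp for Vector and 0 for FTO. By construction, fewer peaks enter under a minimum length and every FTO number rises under the scaling. The cause of the other changes was not tested. Of 85 values under all alternatives, 25 moved and 4 reversed, that of Col4a1 through the scaling. No replicate could be left out, each group having 1 library pair. No paired analysis was possible because the 4 libraries gave only 1 list of peak lengths for Vector and 1 for FTO. The unknown depth and the peak numbers not listed limit each comparison of peak numbers.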
